A study of Mus musculus with 6 samples.

Results

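RGS proteins (regulators of G-protein signalling) were examined in thymic iNKT1 cells through the 8 genes Rgs1, Rgs2, Rgs3, Rgs10, Rgs14, Rgs16, Rgs18 and Rgs19, each taken as the row of the deposited table that bears its symbol. All 8 were found among the 17985 genes of the table, and all 8 were among the 15691 genes that were tested, those averaging 1 CPM or more (CPM is a gene's reads relative to the total of its library). Rgs16 and Rgs18, with means of 1.003 and 1.02 CPM over the 6 libraries, passed that filter narrowly.

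iNKT1 cells are the T-bet-expressing, interferon-producing subset of invariant natural killer T cells. Control mice (Ctrl) had the genotype Tbx21CreTg;Rosa26-LSL-YFP+/+, that is, Cre recombinase driven by Tbx21 and a yellow fluorescent protein reporter that Cre switches on. Conditional knockout mice (cKO) carried the same alleles and in addition Tgfbr2F/F, a loxP-flanked gene for a TGF-beta receptor subunit, so both groups carried Cre and reporter and only cKO carried the floxed gene. All mice were on a C57BL/6 background, were untreated, and gave 3 libraries per group. Their ages, and whether a library pooled animals, are not given in the sources used here. The comparison asks how transcript levels differ in these cells when the TGF-beta receptor is targeted.

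A heterotrimeric G protein is switched on when a receptor loads its alpha subunit with GTP, and switched off when the subunit hydrolyses that GTP. RGS proteins bind active alpha subunits of the Gi and Gq families and speed up hydrolysis, which shortens signalling. In lymphocytes the receptors concerned include those for chemokines and sphingosine-1-phosphate, which guide cells into, within and out of tissues. Rgs1, Rgs2, Rgs3, Rgs16 and Rgs18 belong to one subfamily of mostly small proteins, Rgs10 and Rgs14 to another, and Rgs19 to one more.

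The 6 libraries held between 28832779 and 68092478 reads in all, which makes a single read 0.0147 to 0.0347 CPM. Both replicate 3 libraries stood apart from the other 4: 4406 genes (Ctrl) and 4590 genes (cKO) were at 0 reads there, against between 0 and 5 genes elsewhere. Each number occurs once per group, so results are given without and with the replicate number as a block, and with replicates 1 and 2 alone. The targeted gene Tgfbr2 was at 461, 461 and 425 CPM in Ctrl and 289.8, 257.6 and 274 CPM in cKO, or 61.0% of the Ctrl mean, counted over the whole gene, in which reads of the deleted part are not separated from the rest (limma adjusted p 0.0207, with the block 0.00160). Tgfbr2 passed in 12 of 13 alternatives, not by edgeR without a block (adjusted p 0.0687). Of the 6 fits that left out 1 library it passed in the 1 without cKO replicate 3 (limma adjusted p 0.0299), and in the others the adjusted p ran up to 0.155. The authors' deposited table gives it an adjusted p of 0.373. Among 12 iNKT1 markers the lineage factor genes Tbx21 and Zbtb16 were at 779 ± 86.1 and 49.8 ± 9.19 CPM in Ctrl (SD, n = 3). Of these 12 markers 1 passed limma without the block, the chemokine gene Xcl1, which was lower in cKO, against 0.663% of all tested genes. With the block 4 of the 12 passed (3 higher, 1 lower), against 2.87%. Without a block edgeR called 0 (0.255% of all tested genes) and DESeq2 called 4 (3.52%). Summed markers of B cells (6 of 9 in the table, Ebf1 at 0 in some libraries) were at 6.23 to 21.3 CPM in Ctrl and 5.52 to 24.9 CPM in cKO, and those of myeloid cells (5 of 10, Csf1r at 0 in some libraries) at 13.1 to 17.7 and 13.8 to 18.5 CPM. Summed epithelial and stromal markers (5 of 9, with Col1a2 and Pdgfra at 0 in some libraries) were at 31.1 to 41.6 CPM in Ctrl and 56.4 to 72.8 CPM in cKO, with Pecam1, which some leukocytes also express, the 1 gene of the 5 above 0 in log2 fold change and the other 4 below 0. Summed iNKT17 markers (6 of 8, with Il17f at 0 in some libraries) were at 18.5 to 30.5 CPM in Ctrl and 32.4 to 34.0 CPM in cKO, most of the difference from Serpinb1a. The part of these differences in the results below was not tested. In bulk RNA, fewer cells that express a gene and less RNA of it per cell cannot be told apart.

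Of the 8 genes, Rgs10 fell in cKO by the test without the block, and Rgs10, Rgs1 and Rgs2 fell by the test with it, while no member rose. Over all tested genes, 0.663% passed limma's adjusted p of 0.05 without the block (0.459% lower) and 2.87% with it (1.64% lower). With replicates 1 and 2 alone, where 1.72% of genes passed, 3 members passed, again Rgs10, Rgs1 and Rgs2. On reads recovered from the CPM values, edgeR without a block called 1 member (0.255% of genes) and DESeq2 called 3 (3.52%). The DESeq2 share counts as not called 3042 tested genes that got no adjusted p, Rgs16 and Rgs18 among them. Log2 fold changes of 7 of the 8 members were below 0, against 59% of all tested genes, and the members' median was -0.27 against -0.04. All 3 cKO values lay under all 3 Ctrl values for 4 members (Rgs1, Rgs2, Rgs10 and Rgs19), a pattern that 7.1% of tested genes showed. Summed over the 8 genes, the Ctrl libraries averaged 1162 ± 93.9 CPM and the cKO libraries 908 ± 36.4 CPM (SD, n = 3 per group), with no overlap between them.

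**Figure D1:**
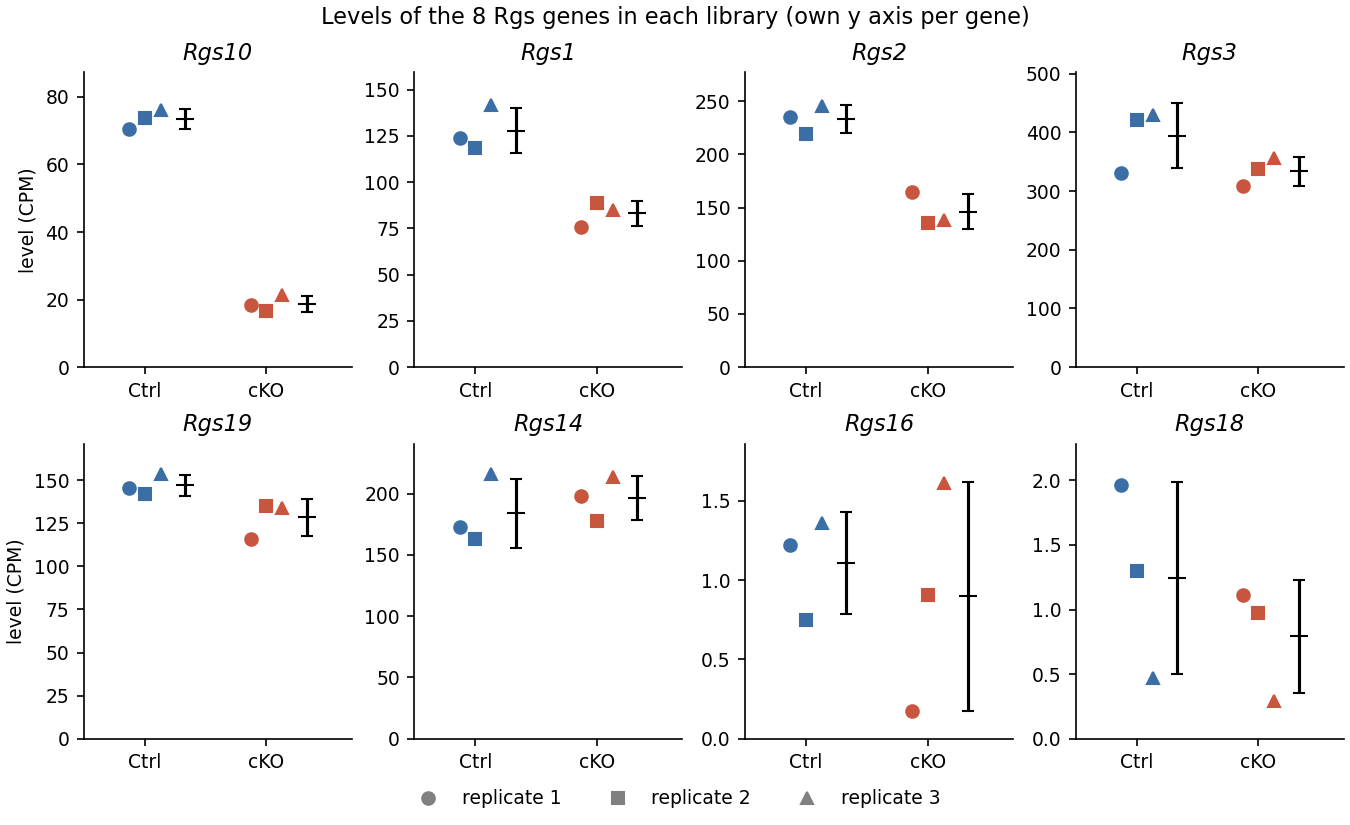
Level of each Rgs gene in each library, in CPM on an axis of its own that starts at 0. Points are libraries (shape gives the replicate number, blue Ctrl, red cKO) and the black bars give the mean and SD of 3 libraries. The libraries of the groups lie apart for Rgs10, Rgs1, Rgs2 and Rgs19 and overlap for the other 4 genes.

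The bases upstream of the start sites of Rgs10 and Rgs2 are shown because these genes had the largest falls among the members that have an entry in the RefSeq promoter table (5 of the 8 have one, and Rgs1 does not). Each run is 238 bases on the minus strand of GRCm38.p6, from base 250 to base 13 before the RefSeq start site, and lies outside the annotated exons there. The Rgs10 run lies within the annotated span of the gene, whose GENCODE 5′ end is further upstream than the RefSeq start. Rgs10 is at chr7:128418185-128418422 and Rgs2 at chr1:144004162-144004399. Capitals mark matches, on either strand, to the motifs searched.
Rgs10: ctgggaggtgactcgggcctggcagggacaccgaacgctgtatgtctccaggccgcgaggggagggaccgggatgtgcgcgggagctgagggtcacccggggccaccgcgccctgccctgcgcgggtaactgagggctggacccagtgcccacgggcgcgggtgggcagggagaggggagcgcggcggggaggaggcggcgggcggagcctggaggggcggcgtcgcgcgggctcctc
Rgs2: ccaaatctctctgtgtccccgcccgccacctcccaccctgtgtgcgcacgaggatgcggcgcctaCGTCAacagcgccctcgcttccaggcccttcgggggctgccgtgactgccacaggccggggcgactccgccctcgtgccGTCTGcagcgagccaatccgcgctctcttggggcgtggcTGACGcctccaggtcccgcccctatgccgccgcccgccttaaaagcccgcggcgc
Both runs are rich in G and C, at 76.9% (Rgs10) and 71.8% (Rgs2) against a median of 52.1% over the same 238 bases of 32851 promoters. The Rgs2 run holds 1 match to the SMAD core CAGAC, which 40.7% of these promoters hold. It holds 2 matches to TGACG, the inner part of the cAMP response element TGACGTCA, which 16.7% hold, and the full element, which 1.42% hold, is in neither run. Neither run holds the SMAD palindrome GTCTAGAC (0.164% of promoters), the AP-1 motif TGANTCA (6.54%) or the T-box motif TCACACCT (1.07%), and none of the motifs searched is in the Rgs10 run. The core motifs can overlap the full ones, and a match here is a description of letters.

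Rgs10 encodes a small protein made of little more than the RGS domain, with activity on Gi-family subunits. The gene (ENSMUSG00000030844) lies on the minus strand of chromosome 7, from 128373621 to 128418758. Ctrl replicates 1 to 3 gave 70.4, 73.8 and 76.2 CPM (2369, 2272 and 4033 reads). The cKO replicates 1 to 3 gave 18.3, 16.6 and 21.4 CPM (528, 696 and 1457 reads). The lowest Ctrl library was thus far above the highest cKO library, and the spread within each group was small. From a Ctrl mean of 73.5 ± 2.88 CPM (SD, n = 3), 25.5% was left in cKO, where the mean was 18.8 ± 2.45 CPM (SD, n = 3). The log2 fold change was -1.92 (standard error 0.119). Its limma adjusted p was 0.00215, and 6.39e-05 with the replicate block. The difference was similar in each same-numbered pair, at -1.89, -2.09 and -1.79 on the log2 scale. Rgs10 passed in all 13 alternatives and in all 6 fits that each left out 1 library, and held rank 9 of the 15691 tested genes by p. In the authors' deposited table its log2 fold change was -1.89 with an adjusted p of 6.74e-18, and of the 8 members the authors marked Rgs10 alone, as lower, while 0.801% of the genes in that table had an adjusted p under 0.05.

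Genes around Rgs10 did not show a difference of that size. Within 1 Mb on either side, 37 other genes were tested, with log2 fold changes between -0.55 and 0.28, and none passed limma's test without the block. With the block 1 of them passed, Zfp688, at -0.55 and an adjusted p of 0.0345. Of the 37, 31 (83.8%) were below 0, against 59% of all tested genes, all but Zfp688 without passing in either test.

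**Figure D2:**
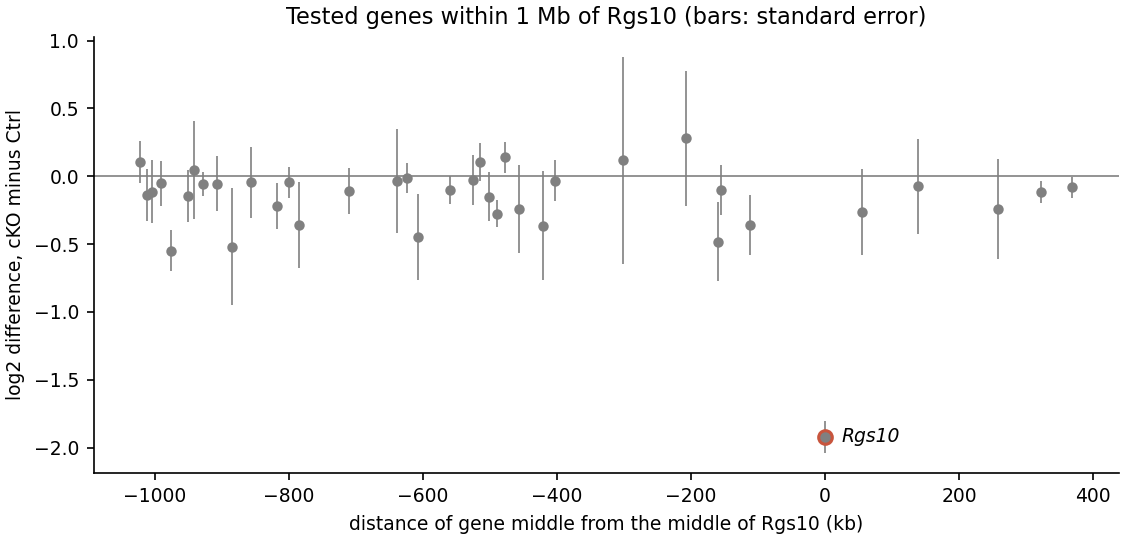
Log2 difference in CPM + 1 between cKO and Ctrl of each tested gene within 1 Mb of Rgs10, against the distance of its middle from the middle of Rgs10 in kilobases. Points are limma estimates and bars their standard errors. Rgs10, in red at -1.92, lies far below the other 37 genes, which run from -0.55 to 0.28.

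Over the 6 libraries the 3 genes whose log2(CPM + 1) was most like that of Rgs10, of 8752 with a mean of at least 10 CPM, were Rpl29 (Pearson r = 0.999), Abhd14a (0.998) and Qpct (0.998). The correlations describe mostly the step between the groups, and 101 genes had an r of at least 0.95. Rpl29, a ribosomal protein gene, went from 169 to 16.5 CPM, Abhd14a from 17.3 to 3.93 CPM and Qpct from 116 to 42.8 CPM (means of 3 libraries). Rpl29 and Abhd14a lie on chromosome 9, as Tgfbr2 does, and reads of Rpl29 are hard to separate from those of near-identical pseudogenes.

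Rgs1 and Rgs2 lie on chromosome 1, in a cluster of Rgs genes that spans 776 kb from Rgs2 to Rgs18. Rgs1 is known in T and B cells for limiting migration towards chemokines. The gene (ENSMUSG00000026358) lies on the minus strand from 144242296 to 144249242. Ctrl replicates 1 to 3 held 123.8, 118.2 and 141.5 CPM of Rgs1, and cKO replicates 1 to 3 held 75.6, 88.6 and 85.0 CPM, without overlap. Averages of 128 ± 12.2 CPM for Ctrl and 83.1 ± 6.70 CPM for cKO (SD, n = 3) left 65.0% of the Ctrl level. The log2 fold change, -0.61 with a standard error of 0.107, missed the threshold without the replicate block (limma adjusted p 0.0884) and passed with it (0.0114) and in replicates 1 and 2 alone (0.0276). Rgs1 passed in 5 of its 13 alternatives, over which the adjusted p ran from 0.000702 to 0.301.

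Rgs2, which acts preferentially on Gq subunits, is encoded 238 kb from Rgs1 (ENSMUSG00000026360, minus strand, 143999338 to 144004161). Values of 234.8, 219.2 and 245.1 CPM in the Ctrl replicates stood against 164.9, 135.5 and 138.3 CPM in the cKO replicates, in order of their numbers. All cKO libraries were again below all Ctrl libraries. The Ctrl average of 233 ± 13.03 CPM compared with 146 ± 16.2 CPM for cKO (SD, n = 3), or 62.7% of Ctrl, and the log2 fold change was -0.67 (standard error 0.104). Its limma adjusted p was 0.0553 without the replicate block, 0.00428 with it and 0.0227 in replicates 1 and 2 alone. Rgs2 passed in 6 of its 13 alternatives, over which the adjusted p ran from 8.30e-08 to 0.0914. Neither Rgs1 nor Rgs2 passed in any of the 6 fits that left out 1 library without a block, where the adjusted p ran from 0.127 to 0.288 and from 0.0537 to 0.262. For Rgs1 and Rgs2 the authors' deposited table lists log2 fold changes of -0.55 and -0.61, with adjusted p values of 0.385 and 0.484.

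The fall of Rgs1 and Rgs2 with the block was not shared by every gene of their region. From 500 kb beyond Rgs2 to 500 kb beyond Rgs18, 12 genes were tested and 3 passed with the block: Rgs1, Rgs2 and B3galt2, a galactosyltransferase gene that went from 3.31 to 9.05 CPM (adjusted p 0.0286). Rgs13, which lies between Rgs2 and Rgs1, had a log2 fold change of 0.29 (limma adjusted p 0.586 with the block). It is near the lower limit of what was tested, with 41, 33 and 0 reads in Ctrl and 61, 71 and 0 reads in cKO, in replicate order. Rgs18, of similarly low level, was at -0.30 (limma adjusted p 0.539 with the block). Rgs1 and Rgs2 are known to be induced by lymphocyte activation, so 25 immediate early and stress genes were read beside them. Their summed level was between 2802 and 3735 CPM in Ctrl and between 3131 and 3767 CPM in cKO. While 59% of all tested genes were below 0 in log2 fold change, 6 of the 25 were below 0 and 19 above. None of them passed limma's test with or without the block, where 1 had an unadjusted p under 0.05 without it. DESeq2 and edgeR without the block called none, and edgeR with the block called 2. In replicates 1 and 2 alone 1 passed, Btg2, which was higher in cKO (log2 fold change 0.36, limma adjusted p 0.0333). Whether activation has a part in the fall of Rgs1 and Rgs2 was not tested.

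**Figure D3:**
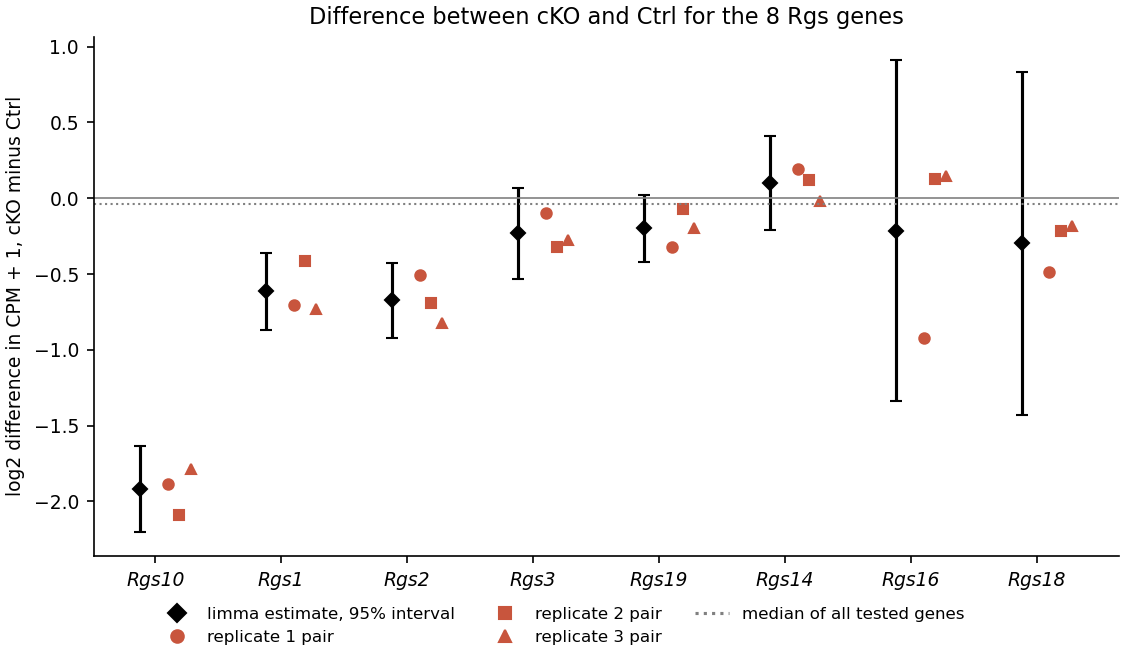
Log2 difference in CPM + 1 between cKO and Ctrl of the 8 Rgs genes. Black diamonds are limma estimates without the replicate block with their 95% intervals, red points are the differences of same-numbered libraries, and the dotted line is the median of all tested genes. The interval of Rgs10 runs from -2.20 to -1.64 and lies below those of Rgs1 and Rgs2, which lie below 0, and the remaining 5 intervals include 0.

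Rgs3, Rgs14 and Rgs19 were well expressed and did not pass in any fit. Rgs3, which produces long and short forms (ENSMUSG00000059810, chromosome 4, 62559847 to 62704001), was at 330.0, 421.8 and 430.1 CPM in Ctrl and 307.9, 336.8 and 355.6 CPM in cKO, in replicate order. Ctrl replicate 1 was below cKO replicates 2 and 3, so the groups overlapped. Its log2 fold change was -0.23, with a 95% interval from -0.53 to 0.066 without the block and from -0.41 to -0.054 with it. The interval with the block lay below 0, but the limma adjusted p with the block was 0.235.

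Rgs19, a regulator of Gi-family subunits (ENSMUSG00000002458, chromosome 2, 181688419 to 181693977), was at 145.3, 142.1 and 153.8 CPM in Ctrl and 116.0, 135.2 and 134.1 CPM in cKO. The groups did not overlap, but the gap was small beside the spread within cKO. The log2 fold change was -0.20, with a 95% interval from -0.42 to 0.024 without the block and from -0.39 to 0.0015 with it. The limma adjusted p was 0.947 without and 0.402 with the block.

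Rgs14 differs from the others in carrying, besides the RGS domain, Ras-binding domains and a GoLoco motif, another site for Gi subunits (ENSMUSG00000052087, chromosome 13, 55369732 to 55384687). It was at 172.9, 163.3 and 215.9 CPM in Ctrl and 198.1, 177.9 and 213.5 CPM in cKO. Rgs14 was the 1 member with a log2 fold change above 0, at 0.10, and its groups overlapped widely. The 95% interval ran from -0.21 to 0.41 without the block and from -0.086 to 0.29 with it. The limma adjusted p with the block was 0.715. Intervals this wide do not show that the groups had the same level.

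Rgs16 and Rgs18 were close to the lower limit of what was tested. Rgs16, which is known as an activation-induced regulator of lymphocyte trafficking (ENSMUSG00000026475, chromosome 1, 153740349 to 153745468), had 41, 23 and 72 reads in Ctrl and 5, 38 and 110 reads in cKO. Those are 1.22, 0.747 and 1.36 CPM against 0.173, 0.904 and 1.62 CPM, so that both the lowest and the highest library were cKO. The 95% interval of its log2 fold change ran from -1.34 to 0.91. An antisense gene, Gm28513, shares 236 exon bases with Rgs16, and without strand information reads there cannot be assigned to either.

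Rgs18, best known from platelets and megakaryocytes (ENSMUSG00000026357, chromosome 1, 144752683 to 144775435), had 66, 40 and 25 reads in Ctrl and 32, 41 and 20 reads in cKO. These are 1.96, 1.30 and 0.472 CPM against 1.11, 0.975 and 0.294 CPM, with overlapping groups. The 95% interval of the log2 fold change ran from -1.43 to 0.83. Of 10 platelet and megakaryocyte markers, Itga2b and Gp5 could be read, and neither exceeded 1.77 CPM in any library. In replicates 1 and 2 the level of Rgs18 per kilobase of exon, between 0.480 and 0.966 CPM per kb, lay near that of the 4098 genes with no reads in either replicate 3 library, whose medians were between 0.606 and 1.06 CPM per kb there. Rgs16 was below those medians, at between 0.0741 and 0.521 CPM per kb.

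Levels of different genes were compared per kilobase of exon, since longer transcripts give more reads. In Ctrl the order was Rgs19 (66.0 ± 2.70 CPM per kb, SD, n = 3), Rgs2 (64.3 ± 3.59), Rgs14 (43.4 ± 6.62), Rgs10 (42.9 ± 1.68), Rgs3 (36.5 ± 5.15) and Rgs1 (18.4 ± 1.75), then Rgs18 (0.613 ± 0.368) and Rgs16 (0.474 ± 0.137). The libraries of Rgs19 and Rgs2 overlapped, as did those of Rgs14 and Rgs10, those of Rgs14 and Rgs3 and those of Rgs18 and Rgs16. In cKO, Rgs10 moved from the fourth to the sixth place, at 11.0 ± 1.43 CPM per kb, where its libraries overlapped those of Rgs1 (11.96 ± 0.965). Its share of the summed level of the 8 members per kb was 15.8% in Ctrl and 5.51% in cKO. The order among the upper 5 genes depended on the length used. The merged exons of Rgs1 cover its whole span of 6947 bases, introns of some transcripts included, and those of Rgs3 add up to 10801 bases. With the longest protein-coding transcript as length, a choice made after the values were seen, Rgs3 took the second place and Rgs2 the fifth in Ctrl, and the libraries from Rgs3 down to Rgs2 overlapped from one place to the next. Rgs19 had the highest level in Ctrl, and Rgs1, Rgs18 and Rgs16 the lowest in that order, under both lengths.

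**Figure D4:**
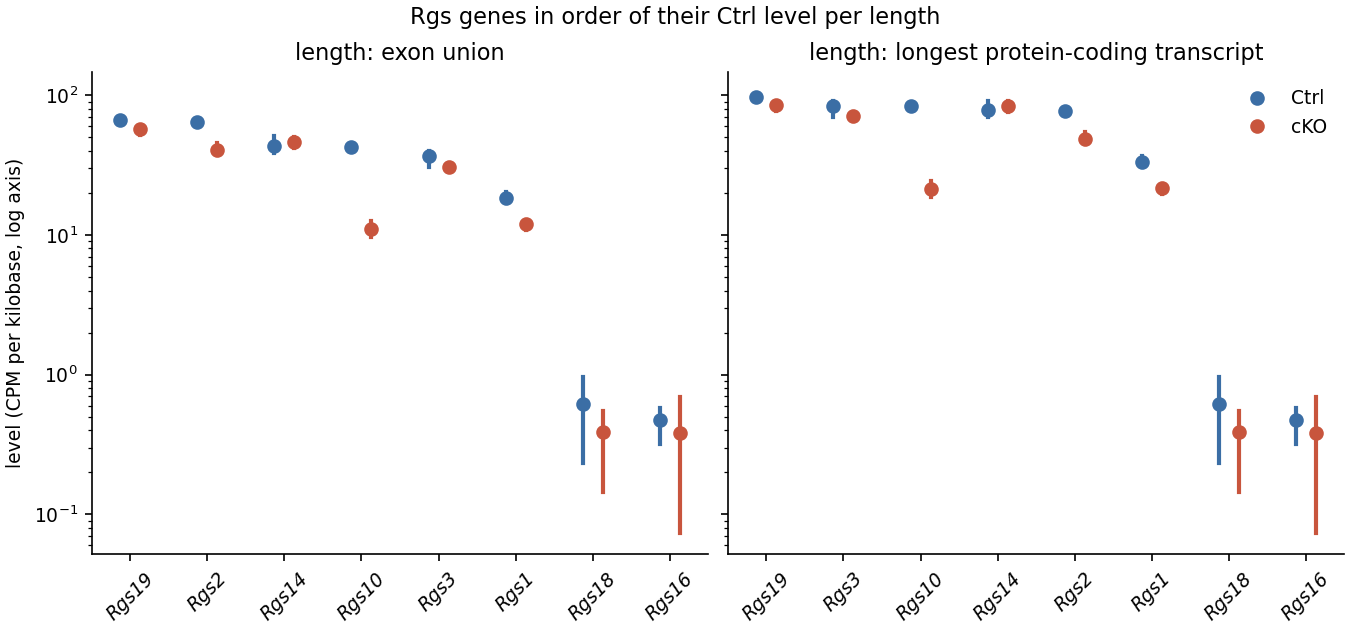
Level of each Rgs gene in CPM per kilobase on a log axis, ordered by the Ctrl mean, with the merged exons (left) or the longest protein-coding transcript (right) as length. Points are means of 3 libraries and bars run from the lowest to the highest library, blue for Ctrl and red for cKO. Rgs10 drops from among the upper 5 genes in Ctrl to the level of Rgs1 in cKO, and Rgs16 and Rgs18 lie far below the rest in both groups.

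Most other members of the family in the table were weakly expressed. Of 12 further RGS family genes in the table, 9 had no reads in at least 1 replicate 3 library, and these were between 0.309 and 6.18 CPM in the other 4 libraries. The remaining 3 were Rgs9, Rgs11 and Rgs12. Rgs11 was at 26.2, 31.6 and 43.2 CPM in Ctrl and 31.8, 35.0 and 17.4 CPM in cKO, in replicate order, so that its direction differed between replicate 3 and the others. Rgs12 was between 10.05 and 15.8 CPM in Ctrl and between 15.2 and 19.8 CPM in cKO. None of the 10 tested genes passed limma with or without the block, none had an unadjusted p under 0.05 without it, and edgeR and DESeq2 called none.

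The G-protein machinery on which RGS proteins act was read from 8 lists, the further RGS genes among them. Of their 110 tested genes 5 passed limma's test without the block (2 higher, 3 lower), or 4.55%, and 16 with it (9 higher, 7 lower), or 14.5%, against the 0.663% and 2.87% of all tested genes. The alpha subunit genes Gnai2 and Gnas were the most read of theirs, at between 732 and 921 CPM and between 325 and 355 CPM in Ctrl, and neither passed. Of 10 alpha subunit genes tested none passed without the block, where 1 had an unadjusted p under 0.05, and edgeR without a block called none. With the block Gna15, a Gq-family subunit, rose from a mean of 38.5 ± 3.70 CPM to 62.6 ± 7.83 CPM (SD, n = 3; limma adjusted p 0.00768), and DESeq2 called 1 gene of the list.

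Beta and gamma subunits showed no called change. None of their 10 tested genes passed limma with or without the block, 1 had an unadjusted p under 0.05 without it, and edgeR and DESeq2 called none. Gnb1 was between 276 and 341 CPM in Ctrl and between 291 and 387 CPM in cKO, and Gnb2 between 124 and 140 CPM and between 125 and 146 CPM. The same held for the 9 RGS-domain scaffolds and RhoGEFs, led by Arhgef1 and Axin1, and the 7 chaperones and modulators, led by Ric8 (Ric8a) and Gpsm3. Of these, limma, edgeR and DESeq2 called none, and none had an unadjusted p under 0.05 without the block.

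Among receptor kinases and arrestins, which uncouple active receptors from G proteins, none of 6 passed without the block, where 2 had an unadjusted p under 0.05. With the block Grk5 rose from a mean of 2.12 ± 0.750 CPM to 5.40 ± 0.755 CPM (SD, n = 3; limma adjusted p 0.0143). Arrb2 went the other way, from 148 ± 9.72 to 112 ± 6.43 CPM (SD, n = 3), without overlap of the groups. It did not pass without the block (limma adjusted p 0.239) or with it (0.0740). It passed in 2 of 13 alternatives, replicates 1 and 2 alone (limma adjusted p 0.0279) among them. Without a block edgeR called none of the 6 and DESeq2 called 3. The most read of them, Adrbk1 (Grk2) and Grk6, did not pass limma's test with or without the block, and DESeq2 called Grk6 higher (DESeq2 adjusted p 0.00270).

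Of 23 tested effectors, Pde4a passed without the block. This phosphodiesterase gene, whose product breaks down cAMP, was at 42.5, 38.6 and 45.2 CPM in Ctrl and 15.5, 15.1 and 8.61 CPM in cKO, so that its log2 fold change was -1.65 (limma adjusted p 0.0348). Pde4a passed in 12 of 13 alternatives. Of the 6 fits that left out 1 library, it passed in the fit without cKO replicate 3 (limma adjusted p 0.0101), and in the other 5 the adjusted p ran up to 0.171. With the block Pik3cg, the PI3-kinase subunit that beta-gamma dimers activate, also fell, from 181 ± 15.1 to 122 ± 9.84 CPM (limma adjusted p 0.0157). Prkar1a and Prex1, the most read of the list, did not pass.

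Receptors held most of the calls, with 4 of 35 tested genes without the block (2 higher, 2 lower) and 12 with it (7 higher, 5 lower). Over all tested genes the shares were 0.663% and 2.87%. The chemokine receptor gene Ccr8 was at 219, 236 and 265 CPM in Ctrl and 5.31, 8.45 and 15.9 CPM in cKO (limma adjusted p 0.00403). Gpr34, a lysophospholipid receptor gene, fell from a mean of 46.7 ± 9.21 CPM to 5.29 ± 2.18 CPM (SD, n = 3; limma adjusted p 0.0104). Ccr2 rose from 161 ± 31.4 to 384 ± 59.7 CPM (limma adjusted p 0.0352), and S1pr5, a receptor for sphingosine-1-phosphate, from 7.36 ± 1.83 to 37.2 ± 13.7 CPM (0.0410). Ccr8 and Gpr34 passed in all 13 alternatives, S1pr5 in 11 (not by edgeR without a block, adjusted p 0.0746, or limma-voom, 0.101) and Ccr2 in 10 (not with TMM scaling without a block, limma adjusted p 0.0533, by edgeR without a block, 0.122, or by limma-voom, 0.0677). Ccr8 passed in all 6 fits that left out 1 library. Gpr34 did so in 3 (without Ctrl replicate 3, cKO replicate 1 or cKO replicate 3), Ccr2 in 2 (without Ctrl replicate 3 or cKO replicate 1) and S1pr5 in 1 (without cKO replicate 3). Examples of calls made with the block only are Ptger4 and Cx3cr1, which fell, and Ptger2 and Ltb4r1, which rose. Cxcr3 and Cxcr6, the most read receptors of the list, differed: Cxcr6 went from 1462 ± 213 to 933 ± 62.7 CPM and passed with the block only (limma adjusted p 0.115 without, 0.00281 with), and Cxcr3 did not pass, between 704 and 781 CPM in Ctrl and between 717 and 847 CPM in cKO.

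**Figure D5:**
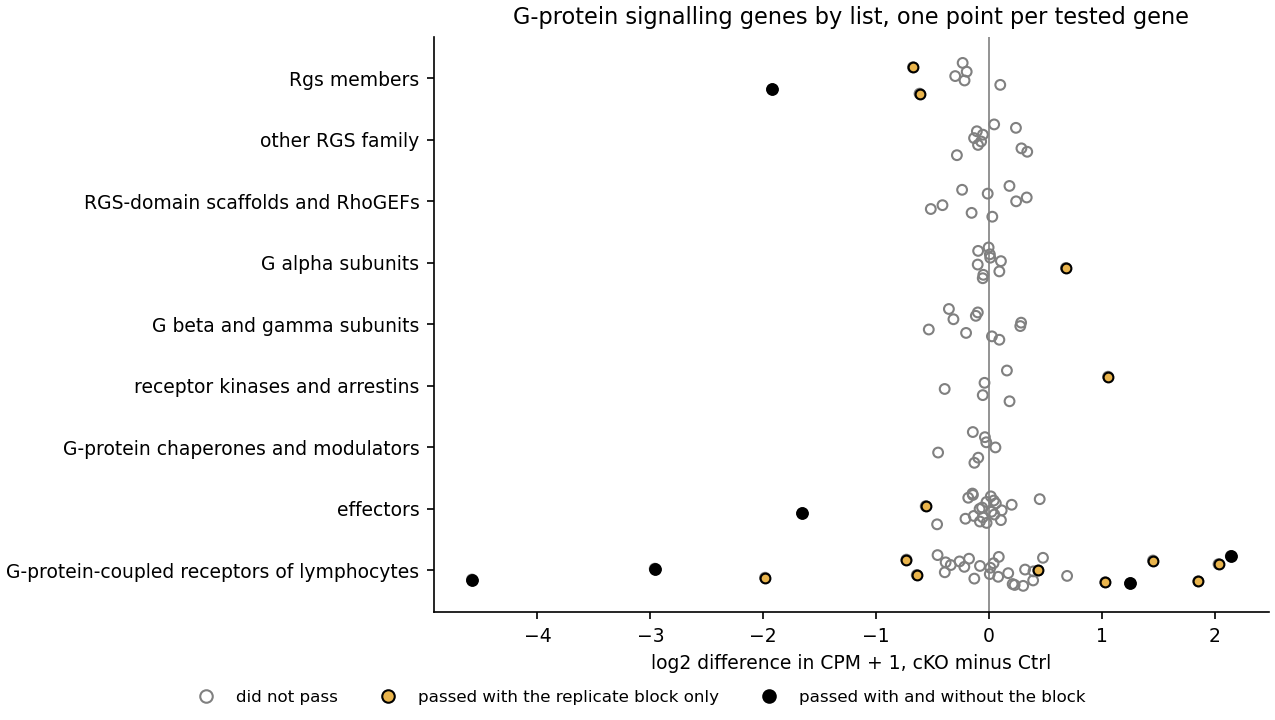
Log2 difference in CPM + 1 between cKO and Ctrl of each tested gene, by list. Black points passed limma's adjusted p of 0.05 with and without the replicate block, yellow points with the block only, and open points in neither. The points that passed lie mostly in the row of receptors, and Rgs10 is the black point among the Rgs members.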

How the data were processed

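RNA was sequenced from 3 Ctrl and 3 cKO libraries. Per the submitters' processing notes, reads were processed with Trimmomatic 0.33, STAR 2.5.2, HTSeq 0.6.1 and edgeR on mm10. Strand-specific counting is not given in the sources used here. The authors deposited CPM values per library. Further deposited columns hold, per the file headers, log2 fold changes and log2 CPM, a likelihood-ratio score, and p-values. The table's WT and KO columns were taken as Ctrl and cKO by tissue and replicate number. Its width column exceeded the gene's span for 1387 genes, so lengths came from GENCODE M21 (GRCm38).

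Each CPM column consisted of whole multiples of 1 read (100% of values within 0.01 of a whole read), which gave the reads and library totals. Every pair of libraries within a group differed by more than sampling noise. The design text calls the replicates independent without naming separate animals, so p-values measure the spread between these libraries.

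Since the unit is CPM, the main test was limma 3.58.1 (R 4.3.3) on log2(CPM + 1), with a mean of at least 1 CPM, a model of group alone, trended and robust variance moderation and Benjamini-Hochberg adjustment over all tested genes at 0.05. Fold changes on this scale understate those of low genes. Adjusted p values are limma's where no tool is given. Alternatives were other pseudocounts, filters and scalings, edgeR 4.0.16 and DESeq2 1.42.0 on recovered reads, limma-voom, and fewer libraries. The limma and edgeR tests were tested on simulated data with the same dispersion for every gene. Those data held no replicate effect and did not copy the missing genes of the replicate 3 libraries. How the tests fare with these features was not checked. An exact permutation test of 3 against 3 cannot go below 0.1 and was not used.

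Same-numbered libraries deviated together from their group means (correlations 0.855, 0.687 and 0.924 for numbers 1 to 3, and 0.384 within replicates 1 and 2). As an alternative, limma and edgeR were also fitted to all tested genes with the number as a block. The labels give the numbers without saying what they share.

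The Rgs genes and lists were chosen with earlier results of these data known. Named genes were all members, Tgfbr2, up to 4 called and the 2 most read genes per pathway list, and the 3 genes most like the member with the smallest p. Names outside that rule were picked with their values in view (Rgs9, Rgs13, Arrb2, Zfp688, B3galt2, the marker genes, and pathway genes called with the block only). Marker lists for iNKT2, iNKT17, double-positive thymocyte, erythroid, and epithelial and stromal cells were also read. Pecam1 was the 1 gene of these to pass without the block (limma adjusted p 0.0423, higher in cKO). With the block, 2 of the 6 tested iNKT2 markers passed limma (1 higher, 1 lower), against 2.87% of all tested genes. The epithelial and stromal list had 1 (higher), and the other lists had none. Summed iNKT2 markers were at 325 to 561 CPM in Ctrl and 317 to 634 CPM in cKO.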

Additional observations from a re-analysis of the deposited data

How the results depend on the processing

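The fall of Rgs10 kept its direction and its call under all 13 alternatives (log2 fold changes from -1.99 to -1.73) and without each library in turn (-2.02 to -1.84). Against 1 Rgs member called, 3 were called with the replicate block, with TMM scaling and the replicate block, by edgeR with the replicate block, by DESeq2 and in replicates 1 and 2, and 2 with a mean of at least 5 CPM (Rgs10 and Rgs2); leaving out a library gave 1 each time. Against 5 pathway genes, these settings gave 16, 17, 17, 20 and 17 in the same order, edgeR without a block 2 and limma-voom 3. Against 104 of all tested genes, they gave 451, 513, 469, 552 and 296, edgeR 40 and limma-voom 62. Without 1 library, pathway calls ran from 1 (without Ctrl replicate 1, Ctrl replicate 2 or cKO replicate 2) to 4, with 3 without Ctrl replicate 3 or cKO replicate 1, and all calls from 14 to 97. The cause was not tested, apart from fewer libraries in the last fits. DESeq2 gave no adjusted p to 3042 genes, Rgs16 and Rgs18 among them. The block changed no other call among the members.

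Among the Rgs members and the called and the 2 most read genes of each pathway list and of the immediate early list, directions turned for 8 genes, none of which passed without the block. Directions of other listed genes, Rgs13 among them, also turned without 1 library. The log2 fold change of Ric8 was 0.00847 under TMM scaling (the same with the replicate block), 0.0126 under edgeR, 0.00891 under edgeR with the replicate block, 0.0179 under DESeq2 and 0.00984 under limma-voom, and that of Rgs11 was 0.20 in replicates 1 and 2. With 1 library left out, log2 fold changes ran from -0.35 to 0.0935 for Rgs16, from -0.47 to 0.0152 for Rgs11, from -0.19 to 0.00264 for Gnai2, from -0.0345 to 0.17 for Gnb1, from -0.0459 to 0.0803 for Gnb2, from -0.0849 to 0.00106 for Ric8, from -0.0634 to 0.20 for Gpsm3 and from -0.45 to 0.0508 for Dusp2, an immediate early gene. The cause was not tested. Rgs16 and Rgs18, at 5 to 110 reads per library, are limited by depth, and they could not be tested with a mean of at least 5 CPM. Of the 6 fits that left out 1 library, Rgs16 was tested in 3 and Rgs18 in 4. Rgs16 was also not tested in replicates 1 and 2 alone. In the fits where they are missing, their mean was under 1 CPM.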
